A study of Mus musculus with 23 samples.

Results

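The genes described here are *Slc2a1*, *Hk1*, *Hk2*, *Gpi1*, *Pfkl*, *Pfkp*, *Pfkm*, *Pfkfb2*, *Pfkfb3* and *Aldoa*, which take glucose into the cell and convert it as far as the triose phosphates. They were chosen by name and are 10 of the 22350 genes quantified in RNA-seq. All 10 had enough reads to be tested in each of the 6 comparisons of the study, so none was lost to a filter on low counts.

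Glucose enters most cells through carriers of the SLC2A family, of which *Slc2a1* encodes the widespread carrier GLUT1, and is trapped inside by hexokinases. Glucose-6-phosphate isomerase then hands it to phosphofructokinase (PFK1), the main control point of the pathway, whose product is split by aldolase. The PFKFB enzymes (PFK2) make and remove fructose-2,6-bisphosphate, a strong activator of PFK1, and mTORC1, the kinase complex that contains Raptor, is known to promote the expression of glycolytic genes. In the small intestine, absorptive cells rely on other carriers, *Slc5a1* and *Slc2a2*, for sugar transport.

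The study asked how reduced translation changes intestinal stem cells, using deletion of *Rptor*, the gene of Raptor, in C57BL/6 mice and in organoids grown from their small intestine. RNA-seq covered WT organoids (VillinCre.ERT2.RPL22.HA, 2 lines with 2 technical libraries each), Rptor fl/fl organoids (VillinCre.ERT2.Rptor.fl/fl, 2 lines with 2 technical libraries each) and stem cell enriched (SCe) organoids (VillinCre.ERT2.RPL22.HA, 3 libraries). Ribo-seq, which sequences the 19 to 32 bases of mRNA that a ribosome covers, was done on Rptor fl/fl organoids (VillinCre.ERT2.Rptor.fl/fl.RPL22.HA) and SCe organoids (VillinCre.ERT2.RPL22.HA), 3 libraries each, and on the small intestine of 3 WT mice (Lgr5Cre.ERT2.RPL22.HA) and 3 Rptor fl/fl mice (Lgr5Cre.ERT2.Rptor.fl/fl.RPL22.HA). SCe organoids were of the WT genotype, in ENR medium with 10 µM of the GSK3 inhibitor CHIR 99021 and 1.5 mM valproic acid, so that a comparison of Rptor fl/fl with SCe organoids differs in both genotype and medium. WT and Rptor fl/fl organoids and the mice are labelled untreated, although every group carries a tamoxifen-activated Cre and tamoxifen was used to induce it. Villin drives Cre in the whole gut epithelium and *Lgr5* in stem cells at the crypt base. In all Ribo-seq groups, footprints came from ribosomes pulled down by HA-tagged RPL22, and the label of the Rptor fl/fl organoids in RNA-seq names no RPL22.HA allele. The mice were 8 to 12 weeks old and were sampled 24 h after injection.

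Libraries held 23802944 to 67598878 estimated reads in RNA-seq, 1106178 to 8257457 in Ribo-seq of organoids and 772077 to 8238388 in Ribo-seq of mice, so that low genes are measured least well in mice. *Rptor* itself was at 51.5 and 47.9 CPM (counts-per-million, scaled for library size) in WT and 14.8 and 15.5 CPM in Rptor fl/fl organoids in RNA-seq (log2 fold change −1.71 ± 0.08 SE, adjusted p = 0.00516). Its footprints did not separate the groups, at 17.3, 18.7 and 16.0 CPM in Rptor fl/fl and 15.2, 41.9 and 21.0 CPM in SCe organoids (adjusted p = 0.318). In mice *Rptor* was at 39.7 to 44.7 CPM in WT and 32.6 to 36.9 CPM in Rptor fl/fl (adjusted p = 0.15). Adjusted p-values throughout are from edgeR's quasi-likelihood test with Benjamini-Hochberg correction over all genes tested, errors of fold changes are SE, and 0.05 is the threshold. Beyond separate organoid numbers and mouse numbers the labels do not say how replicates were obtained, and p-values measure the spread between them.

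Markers of cell types moved with the groups. Against WT organoids, 11.6% of all genes tested in RNA-seq were called higher and 11.0% lower in Rptor fl/fl, and 22.4% and 19.9% in SCe. In RNA-seq of organoids, goblet markers summed to 1761 to 1902 CPM in WT, 3088 to 4291 CPM in Rptor fl/fl (4 of 7 higher than WT) and 247 to 480 CPM in SCe (5 of 7 lower). Paneth markers summed to 5012 to 6261 CPM in WT, 930 to 1912 CPM in Rptor fl/fl (6 of 8 tested lower) and 1031 to 5362 CPM in SCe, and the 8 stem cell markers to 4996 to 6761, 2008 to 3379 (6 of 8 lower) and 2496 to 3308 CPM (2 of 8 lower). The lower stem cell sum in SCe was carried by *Olfm4*, at 2864 to 4433 CPM in WT and 42.2 to 135 CPM in SCe. *Lgr5* was at 197 to 215 CPM in WT and 219 to 337 CPM in SCe. The median log2 change of the 8 in SCe against WT was 0.05. Enteroendocrine markers were at 203 to 302, 88.6 to 210 and 2.07 to 27.1 CPM (3 of 7 and 6 of 7 lower). Stroma markers summed to 1.45 to 3.43 CPM in WT and Rptor fl/fl and 69.8 to 115 CPM in SCe (3 of 3 tested higher than WT). Most of the SCe sum was *Vim*, at 65.8 to 111 CPM. *Pdgfra* rose from 0.363 to 0.378 CPM in WT to 2.70 to 4.31 CPM in SCe. *Col1a1* rose from 0.0807 to 0.113 CPM to 0.895 to 1.91 CPM, and *Col3a1* and *Lum* were at 0 in each of these groups. Enterocyte markers ranged from 726 to 5045 CPM within SCe alone. SCe library 1 stood apart from the other SCe libraries in RNA-seq, with *Slc2a5*, the fructose carrier of enterocytes, at 2.87% of the level per length of the facilitative sugar carriers against 16.0% and 14.5%. In the mouse pulldowns, the same stem cell markers summed to 736 to 770 CPM in WT and 472 to 741 CPM in Rptor fl/fl, none of them at 0, beside 58310 to 60300 and 62303 to 68719 CPM for 10 enterocyte markers. Their part in the results below was not tested. In bulk samples, fewer cells of a type and less RNA per cell cannot be told apart.

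The 10 genes took 0.256% to 0.417% of all reads in RNA-seq, 0.480% to 0.679% in Ribo-seq of organoids and 0.187% to 0.232% in mice. *Aldoa* and *Gpi1* held 57.5% to 77.3% of these reads. Per length of sequence, as TPM recomputed from the reads over all genes, the mean level in WT organoids in RNA-seq was 1200 ± 254 for *Aldoa* and 704 ± 117 for *Gpi1* (SD, n = 2), followed by *Pfkl* at 162 ± 30.4, *Pfkp* at 129 ± 22.6 and *Slc2a1* at 59.9 ± 17.3. The isomerase and the aldolase were thus far above the genes of the steps before and between them. At the low end were *Pfkfb2* at 28.6 ± 1.2, *Pfkm* at 16.8 ± 0.212, *Pfkfb3* at 16.1 ± 3.68, *Hk2* at 15.7 ± 4.67 and *Hk1* at 14.4 ± 4.03, and the ranges of the last 4 overlapped. In WT mice the order of the footprint levels differed: after *Aldoa* at 282 ± 11.7 and *Gpi1* at 260 ± 8.33 (SD, n = 3), *Pfkp* at 135 ± 3.61 stood far above *Pfkl* at 15.8 ± 1.03, and *Slc2a1*, at 8.51 ± 1.63, was among the 3 lowest. The sequences counted in mice include the annotated 5′ UTR, which those of organoid footprints leave out, so that mouse footprints can hold upstream ones.

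**Figure D1:**
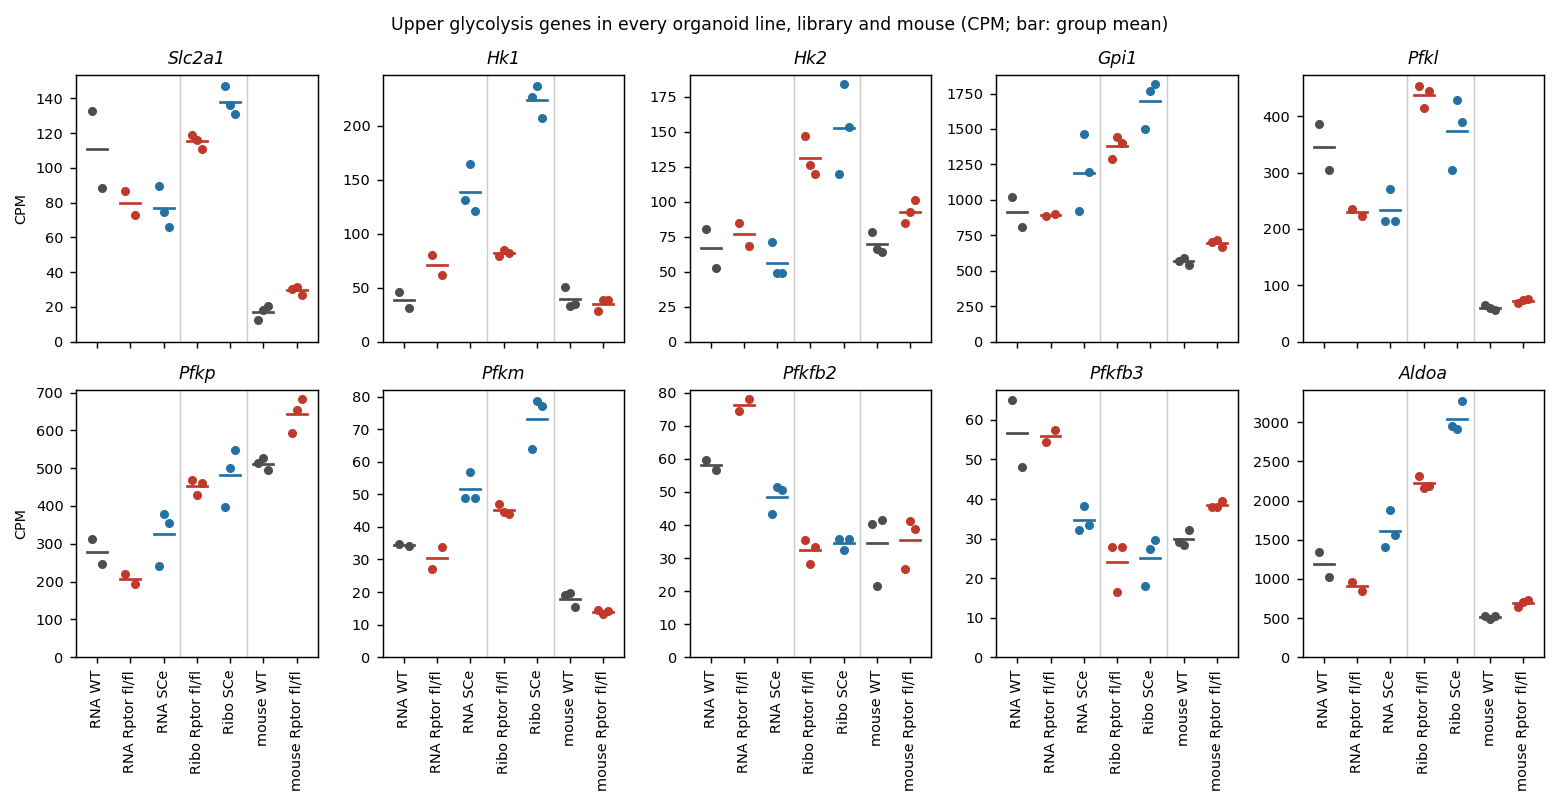
CPM of each gene (vertical axis, linear, from 0) in every organoid line, library and mouse; points are samples, the bar is the group mean, grey is WT, red Rptor fl/fl and blue SCe, and grey lines part RNA-seq, Ribo-seq of organoids and Ribo-seq of mice, whose levels are scaled separately. *Hk1* lay between 121 and 165 CPM in SCe organoids against 31.1 and 46.4 CPM in WT, and *Slc2a1* between 27.0 and 31.4 CPM in Rptor fl/fl mice against 12.6 to 20.6 CPM in WT mice.

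The promoters of these genes were searched for ACGTG, the core that hypoxia-inducible factors are known to bind, and for CACGTG, the E-box of MYC and of the carbohydrate sensor ChREBP, which contains the former on both strands. RefSeq promoters (GRCm38.p6, 250 bases before to 50 after a start, both strands) matched all 10 genes with 19 promoters. ACGTG was in 11 of the 19 and in 6447 of 32851 promoters overall (19.6%). The 7 genes holding it were *Aldoa*, *Hk1*, *Hk2*, *Pfkfb2*, *Pfkfb3*, *Pfkm* and *Slc2a1*. CACGTG was in 3 of the 19, those of *Pfkfb2*, *Pfkfb3* and *Pfkm*, against 7.15% of all promoters. The matches below, with ACGTG in capitals, belong to 3 genes whose footprints rose in mice and to a PFK2 gene whose mRNA differed between the organoid groups, and a match is a description, not a bound site. Footprints of *Gpi1* and *Pfkp* also rose in mice, and their promoters held no ACGTG. Of the 7 genes holding it, *Hk1*, *Pfkm*, *Pfkfb2* and *Pfkfb3* were not called in mice. The *Pfkfb3* match shown lies within CACGTG.
Slc2a1, chr4:119108701-119108721, plus strand, 31 bases before the start: cgccccggACGTGctccccag
Hk2, chr6:82774494-82774514, plus strand, 47 bases before the start: ggacagtgACGTGgatgtgct
Hk2, chr6:82774668-82774688, plus strand, 221 bases before the start: gagttgggACGTGtgttccgt
Aldoa, chr7:126799368-126799388, plus strand, 121 and 197 bases before its 2 starts: ccgctaggACGTGactcgagc
Pfkfb3, chr2:11502130-11502150, minus strand, 47 bases before the start: ttctctccACGTGaaaggggg

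Between Rptor fl/fl and WT organoids 2 of the 10 mRNAs were called. *Pfkfb2* rose and *Pfkl* fell against WT, where 11.6% of 14131 genes tested were called higher and 11.0% lower. The median log2 fold change of the 10 was −0.10, beside −0.00 over all genes tested. *Hk1* had the largest estimate, 0.87 ± 0.23, with an adjusted p of 0.0553, and *Slc2a1*, *Pfkp* and *Aldoa* were lower in both lines without passing. With DESeq2 5 of the 10 passed (*Hk1*, *Pfkl*, *Pfkp*, *Pfkfb2* and *Aldoa*), with technical libraries kept separate 6, with a block for the line number 6, and with all RNA-seq groups in 1 fit none did (edgeR, 3 at an unadjusted p under 0.05). The 2 technical libraries of a line are not independent, so keeping them separate overstates the replication. The count was 0 without Rptor fl/fl line 1, 1 without Rptor fl/fl line 2 and 1 without WT line 1.

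Between SCe and WT organoids *Hk1* and *Pfkm* rose and *Pfkl* and *Pfkfb3* fell, where 22.4% of 14925 genes were called higher and 19.9% lower. The count of 2 in each direction among the 10 is near these shares. The median of the 10 was 0.01 beside 0.02 over all genes. The count of 4 was 9 without SCe library 1 (all but *Hk2*), 2 without SCe library 3, 1 without WT line 1 and 2 without WT line 2, and *Hk1* was called each time.

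Between Rptor fl/fl and SCe organoids, which were compared in both assays, mRNA of *Hk1*, *Pfkm* and *Aldoa* was lower and that of *Pfkfb2* and *Pfkfb3* higher in Rptor fl/fl, with 21.0% of 15103 genes called higher and 21.8% lower. The median over the 10 was −0.22, and −0.01 over all genes. Without Rptor fl/fl line 2 the count fell from 5 to 1 (*Pfkm*), without Rptor fl/fl line 1 it was 3, and without SCe library 1 it was 8. Footprints of *Hk1* and *Pfkm* were lower and of no gene of the 10 higher, with 9.84% of 10817 genes called lower and 6.63% called higher. The median was −0.23 beside −0.02. For 5 of the 10 the CPM of the groups did not overlap, lower in Rptor fl/fl each time, against 19.3% of all genes tested. The share of a gene's footprints on entries upstream of the coding start was higher in Rptor fl/fl without overlap for 2 of the 10 (2.98% of 10464 genes) and lower without overlap for 3, *Gpi1*, *Hk1* and *Pfkfb2* (6.34%). Any gene with no upstream footprint counts among the 10464 and cannot separate, which lowers these shares. The count of 2 calls was 1 without any single Rptor fl/fl library and 4 without SCe library 1. Markers differed here too. Goblet markers summed to 3222 to 5247 CPM in Rptor fl/fl and 1187 to 1576 CPM in SCe footprints (7 of 7 higher). Stroma markers summed to 5.72 to 9.80 and 143 to 810 CPM, mostly *Vim*, at 139 to 808 CPM in SCe. Erythroid markers were at 1.46 to 4.65 and 1.71 to 250 CPM. The part of these markers in the footprint results was not tested. These 3 organoid comparisons share samples in RNA-seq, and their values are set side by side only.

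Footprints in mice were higher for 5 of the 10 genes in Rptor fl/fl than in WT (*Slc2a1*, *Hk2*, *Gpi1*, *Pfkp* and *Aldoa*) and lower for none, where 7.47% of 11515 genes were called higher and 5.97% lower. The estimates were modest, from 0.30 to 0.64 on the log2 scale, with a median over the 10 of 0.32 beside −0.02 over all genes tested. For 7 of the 10 the groups did not overlap and Rptor fl/fl was higher (15.6% of all genes), and for *Pfkm* they did not overlap and Rptor fl/fl was lower (15.5%). Without WT mouse 3, the deepest of its group, 2 of the 5 calls were made (*Slc2a1* and *Aldoa*), and without Rptor fl/fl mouse 2 there were 3 (*Hk2*, *Pfkp* and *Aldoa*). Beside these results, erythroid markers summed to 154 to 178 CPM in WT and 816 to 990 CPM in Rptor fl/fl mice (4 of 4 tested higher), stroma markers to 1007 to 1035 and 1258 to 1500 CPM (6 of 7 higher), goblet markers to 25553 to 25866 and 30240 to 33809 CPM (4 of 7 higher) and immune markers to 1300 to 1369 and 1059 to 1148 CPM (2 of 8 higher and 1 lower), and smooth muscle markers overlapped at 1589 to 1874 CPM. The lower immune sum was carried by *Jchain*, at 997 to 1066 and 727 to 782 CPM, while *Lyz2* and *Cd68* rose. Their part in the higher footprints was not tested.

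**Figure D2:**
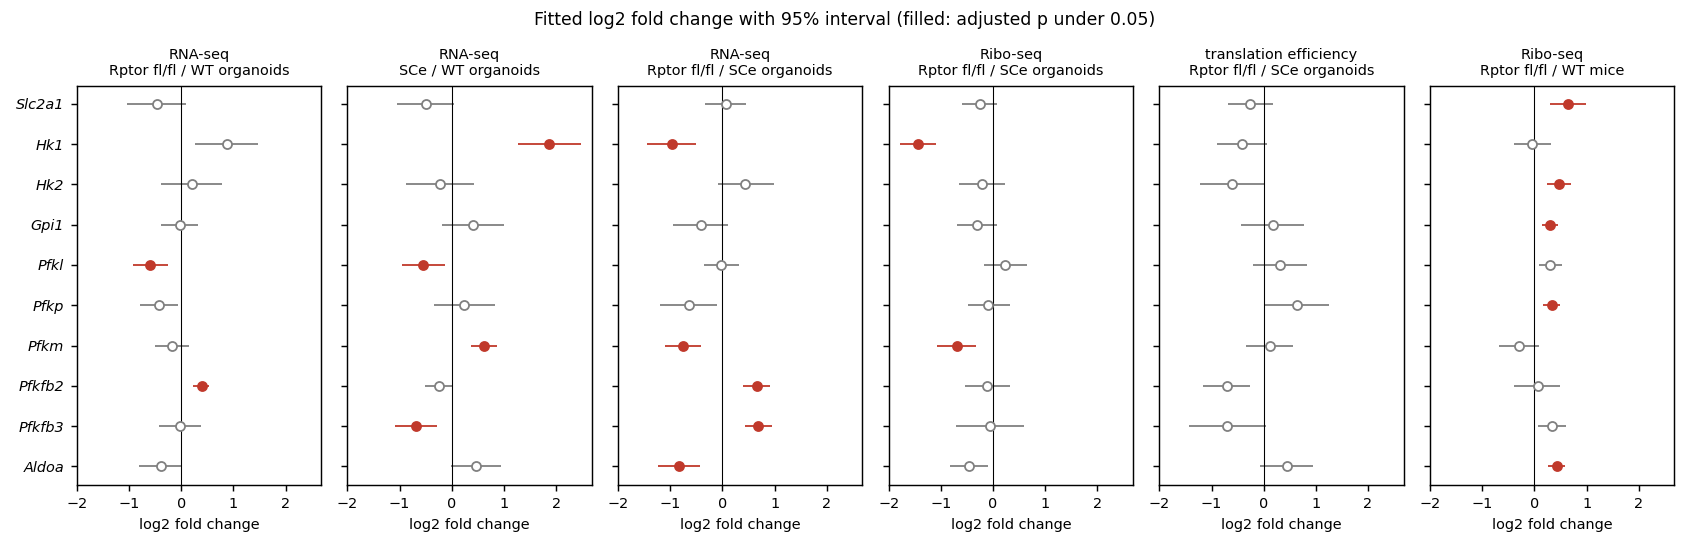
Log2 fold change of the 10 genes (horizontal axis) with 95% intervals in the 6 comparisons; filled red points have an adjusted p under 0.05 in edgeR and open grey points do not. Each estimate for mice except those of *Hk1* and *Pfkm* lies above 0, and that of *Hk1* in organoids is 1.86 in SCe against WT and −1.44 for footprints in Rptor fl/fl against SCe.

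*Slc2a1* (ENSMUSG00000028645.11, chr4:119108711-119137983, plus strand), the GLUT1 carrier, was the gene of the 10 with the largest estimate in mice. Its footprints were at 12.6, 18.3 and 20.6 CPM in WT mice and at 30.0, 31.4 and 27.0 CPM in Rptor fl/fl mice. These rest on few reads, 10, 40 and 113 footprints in WT and 91, 103 and 214 in Rptor fl/fl. The groups did not overlap, and the change was 1.55-fold (0.64 ± 0.16, adjusted p = 0.0169). The call was lost with DESeq2 (adjusted p = 0.0515), with the deposited effective length as an offset (0.65, adjusted p = 0.122), without Rptor fl/fl mouse 2 (0.60, adjusted p = 0.0686) and without WT mouse 2 (0.62, adjusted p = 0.0659). Within the 6 facilitative carriers, its share of the levels per length was 2.96% ± 0.577 in WT and 5.70% ± 0.601 in Rptor fl/fl mice (SD, n = 3 each), while *Slc2a2*, the carrier of the basolateral membrane of enterocytes, took 67.5% to 78.1%. The shares did not overlap, and the exact permutation test over 3 against 3 mice gave its smallest possible p, 0.1 two-sided (0.2 adjusted over 8 shares).

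In organoids *Slc2a1* mRNA was highest in WT, at 133 and 88.2 CPM, and was at 86.8 and 72.6 CPM in Rptor fl/fl and 89.4, 74.6 and 66.2 CPM in SCe. WT lay above Rptor fl/fl without overlap, WT and SCe overlapped narrowly, and the other two groups overlapped. Neither difference from WT passed (−0.47 ± 0.21, adjusted p = 0.174 for Rptor fl/fl, and −0.50 ± 0.21, adjusted p = 0.116 for SCe), though the first was −0.73 without WT line 2 (adjusted p = 0.0405) and the second −0.63 without SCe library 1 (adjusted p = 0.0336). Footprints were at 119, 116 and 111 CPM in Rptor fl/fl and 147, 136 and 131 CPM in SCe organoids, lower in Rptor fl/fl without overlap, with an interval of the log2 change from −0.59 to 0.08. Unlike in mice, *Slc2a1* was the leading facilitative carrier in organoids, with 47.0% to 80.6% of the family in RNA-seq.

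*Hk1* (ENSMUSG00000037012.18, chr10:62268855-62379908, minus strand) encodes the hexokinase of tissues with a steady need for glucose. Its mRNA was at 46.4 and 31.1 CPM in WT, 80.0 and 61.8 CPM in Rptor fl/fl, and 131, 165 and 121 CPM in SCe organoids. The 3 groups were ordered without overlap. The rise in SCe against WT was 3.64-fold (1.86 ± 0.24, adjusted p = 0.00467), the largest change of any of the 10 genes, and was called under each of 11 alternatives (1.59 to 2.16). Rptor fl/fl organoids stood between, 1.83-fold above WT (0.87 ± 0.23, adjusted p = 0.0553) and 0.511 times SCe (−0.97 ± 0.19, adjusted p = 0.0129). The latter was −0.79 without Rptor fl/fl line 2 (adjusted p = 0.0904), and the former passed without WT line 1 (adjusted p = 0.0334).

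Footprints of *Hk1* in organoids, which cover Rptor fl/fl and SCe, were also lower in Rptor fl/fl. They were at 79.6, 84.8 and 82.5 CPM in Rptor fl/fl and 227, 237 and 207 CPM in SCe organoids, a ratio of 0.369 (−1.44 ± 0.15, adjusted p = 0.00118). The call was lost with effective length as an offset (−1.15, adjusted p = 0.0683). In mice the gene was at 50.6, 32.9 and 34.9 CPM in WT and 28.3, 38.7 and 38.7 CPM in Rptor fl/fl, the groups overlapped, and the interval of the log2 change ran from −0.39 to 0.31.

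*Hk2* (ENSMUSG00000000628.10, chr6:82725025-82774454, minus strand), the inducible hexokinase that HIF1 and growth signals are known to raise, was higher in Rptor fl/fl mice and was not called in organoids. Footprints were at 78.4, 66.2 and 64.1 CPM in WT and 85.0, 92.3 and 101 CPM in Rptor fl/fl mice. The groups did not overlap, and the rise was 1.39-fold (0.48 ± 0.11, adjusted p = 0.00728). Without WT mouse 3 it was 0.41 with an adjusted p of 0.0859, and with effective length as an offset 0.49 with an adjusted p of 0.0513. In organoids the mRNA was at 80.3 and 52.9 CPM in WT, 84.9 and 68.2 CPM in Rptor fl/fl and 71.4, 48.9 and 49.0 CPM in SCe, and the ranges overlapped in each pair of groups. Without SCe library 1, which lay at 71.4 CPM, Rptor fl/fl was above SCe by 0.64 (adjusted p = 0.00502). Footprints were at 147, 126 and 120 CPM in Rptor fl/fl and 120, 184 and 153 CPM in SCe organoids, also overlapping (interval −0.66 to 0.23).

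Among the 5 hexokinase genes, *Hkdc1*, which is not among the 10, was the largest per length in WT and Rptor fl/fl organoids (53.9% to 64.3% in RNA-seq), and *Hk1* was in SCe. *Hk1* took 18.3% ± 2.04 of the hexokinase mRNA in WT (SD, n = 2), 24% ± 4.71 in Rptor fl/fl (n = 2) and 58.6% ± 5.85 in SCe organoids (n = 3), and *Hkdc1* 12.8% to 33.1% in SCe. The exact permutation test of SCe against WT gave p = 0.1, the smallest for 2 against 3 lines (two-sided, 0.2 adjusted over 8 shares). On footprints the share of *Hk1* was 51.4% ± 4.7 in SCe and 28.1% ± 1.22 in Rptor fl/fl organoids by full sequence length (exact p = 0.1, the smallest for 3 against 3), and 43.7% ± 14.5 and 32% ± 6.21, overlapping, by the deposited effective length (exact p = 0.3). That effective length subtracts a fragment length meant for RNA-seq and inflates short sequences in footprint files. In mice *Hkdc1* took 81.3% to 85.0% of the footprints per length, *Hk2* took 9.49% ± 0.384 in WT and 11.7% ± 0.328 in Rptor fl/fl without overlap (exact p = 0.1, adjusted 0.2), and *Hk1* was at 3.99% to 7.21%.

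*Gpi1* (ENSMUSG00000036427.5, chr7:34201330-34230336, minus strand), the isomerase with no isozyme, rose in mice by the smallest step of the 5 called genes. It was at 571, 592 and 540 CPM in WT and 706, 716 and 667 CPM in Rptor fl/fl, without overlap, 1.23-fold (0.30 ± 0.07, adjusted p = 0.011). The call was lost with effective length as an offset (0.29, adjusted p = 0.101), without Rptor fl/fl mouse 2 (0.28, adjusted p = 0.0672) and without WT mouse 3 (0.26, adjusted p = 0.0723). In organoids its mRNA was at 1021 and 805 CPM in WT, 889 and 897 CPM in Rptor fl/fl and 921, 1463 and 1193 CPM in SCe. Rptor fl/fl lay within the range of WT, and the interval of its log2 change was −0.38 to 0.32. Footprints were at 1289, 1442 and 1399 CPM in Rptor fl/fl and 1503, 1770 and 1820 CPM in SCe, lower in Rptor fl/fl without overlap (−0.30 ± 0.17, adjusted p = 0.256). Without SCe library 1 of each assay, Rptor fl/fl was below SCe by −0.57 in RNA-seq (adjusted p = 0.0109) and −0.38 in footprints (adjusted p = 0.0303), and SCe was above WT by 0.56 (adjusted p = 0.0223).

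The liver-type subunit of PFK1, *Pfkl* (ENSMUSG00000020277.10, chr10:77986947-78010083, minus strand), had more mRNA in WT organoids than in either other group. It was at 386 and 305 CPM in WT, 236 and 223 CPM in Rptor fl/fl and 214, 270 and 214 CPM in SCe. WT overlapped with neither group, and Rptor fl/fl and SCe overlapped with each other. The fall was 0.664 times in Rptor fl/fl (−0.59 ± 0.13, adjusted p = 0.0361) and 0.683 times in SCe (−0.55 ± 0.16, adjusted p = 0.0449). Both calls were lost without WT line 1, where the estimates were −0.42 and −0.39 (adjusted p = 0.0899 and 0.22). The first was also lost without Rptor fl/fl line 1 (−0.63, adjusted p = 0.0898) and line 2 (−0.54, adjusted p = 0.111), the second without WT line 2 (−0.72, adjusted p = 0.0761) and SCe library 3 (−0.49, adjusted p = 0.132). Footprints were at 454, 415 and 445 CPM in Rptor fl/fl and 304, 428 and 389 CPM in SCe organoids, where SCe library 1 was low (interval −0.18 to 0.64). In mice they were at 64.5, 59.4 and 56.4 CPM in WT and 67.9, 73.4 and 75.2 CPM in Rptor fl/fl, without overlap but above the threshold (0.30 ± 0.10, adjusted p = 0.0633), and without Rptor fl/fl mouse 1 the estimate was 0.35 (adjusted p = 0.027).

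*Pfkp* (ENSMUSG00000021196.14, chr13:6579768-6648777, minus strand), the platelet-type subunit, was the main PFK1 gene in mice and rose there. Its footprints were at 514, 527 and 494 CPM in WT and 593, 653 and 682 CPM in Rptor fl/fl, 1.26-fold higher without overlap (0.33 ± 0.07, adjusted p = 0.00739, and 0.31 with adjusted p = 0.0532 without WT mouse 3). In organoids the mRNA was at 312 and 246 CPM in WT, 220 and 193 CPM in Rptor fl/fl and 241, 378 and 355 CPM in SCe. Rptor fl/fl was the lowest and overlapped with neither group, though neither difference passed (−0.43 ± 0.14, adjusted p = 0.0848 against WT, and −0.65 ± 0.22, adjusted p = 0.061 against SCe). Without SCe library 1, which lay at 241 CPM, the latter was −0.83 (adjusted p = 0.001). The footprints of the same groups overlapped, at 469, 430 and 461 CPM in Rptor fl/fl and 397, 500 and 547 CPM in SCe (−0.09 ± 0.18, adjusted p = 0.78).

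*Pfkm* (ENSMUSG00000033065.14, chr15:98092589-98132451, plus strand), the muscle-type subunit and the least abundant of the 3, followed *Hk1* in being highest in SCe organoids. Its mRNA was at 34.6 and 34.0 CPM in WT, 27.1 and 33.8 CPM in Rptor fl/fl and 48.8, 56.9 and 49.0 CPM in SCe. SCe was above the others without overlap, 1.53-fold over WT (0.61 ± 0.10, adjusted p = 0.0085), and Rptor fl/fl was at 0.591 times SCe (−0.76 ± 0.14, adjusted p = 0.0106). The first was 0.60 and 0.59 without WT line 1 or 2 (adjusted p = 0.0711 and 0.0743) and the second −0.60 without Rptor fl/fl line 1 (adjusted p = 0.0642). Footprints were at 47.0, 44.5 and 44.0 CPM in Rptor fl/fl and 64.0, 78.7 and 77.0 CPM in SCe, 0.617 times without overlap (−0.70 ± 0.16, adjusted p = 0.0218). Leaving out Rptor fl/fl library 1, 2 or 3 gave −0.73, −0.68 and −0.67 (adjusted p = 0.0864, 0.11 and 0.128), and with effective length as an offset the estimate was −0.33 (adjusted p = 0.406). In mice it was at 19, 19.6 and 15.3 CPM in WT and 14.5, 13.4 and 14.1 CPM in Rptor fl/fl, the gene of the 10 whose groups did not overlap downwards (−0.29 ± 0.18, adjusted p = 0.307), on 15 to 84 and 44 to 112 footprints.

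The shares of the 3 subunits in PFK1, per length, are given for each assay, and organoids and mice were not compared. In RNA-seq *Pfkl* took 52.6% ± 0.704 in WT, 48.5% ± 0.12 in Rptor fl/fl and 37.8% ± 4.72 in SCe organoids (SD), and *Pfkp* 41.9% ± 0.173, 44.5% ± 1.64 and 53.1% ± 5.51. The shares of *Pfkm* were 5.51% ± 0.878, 6.95% ± 1.52 and 9.06% ± 0.798. The share of *Pfkl* in SCe was below WT without overlap (exact permutation p = 0.1, adjusted 0.2). On organoid footprints *Pfkl* took 78.0% ± 6.34 in Rptor fl/fl and 80.1% ± 11.8 in SCe by effective length, and 54.4% ± 4.56 and 50.6% ± 9.25 by full length (SD, n = 3 each), overlapping both times. In mice *Pfkp* took 86.8% ± 0.684 in WT and 88.2% ± 0.369 in Rptor fl/fl, *Pfkl* 10.1% ± 0.518 and 9.82% ± 0.172, and *Pfkm* 3.06% ± 0.269 and 1.94% ± 0.224. The shares of *Pfkp* and *Pfkm* did not overlap between the mouse groups (exact p = 0.1 each, the smallest for 3 against 3, adjusted 0.2).

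**Figure D3:**
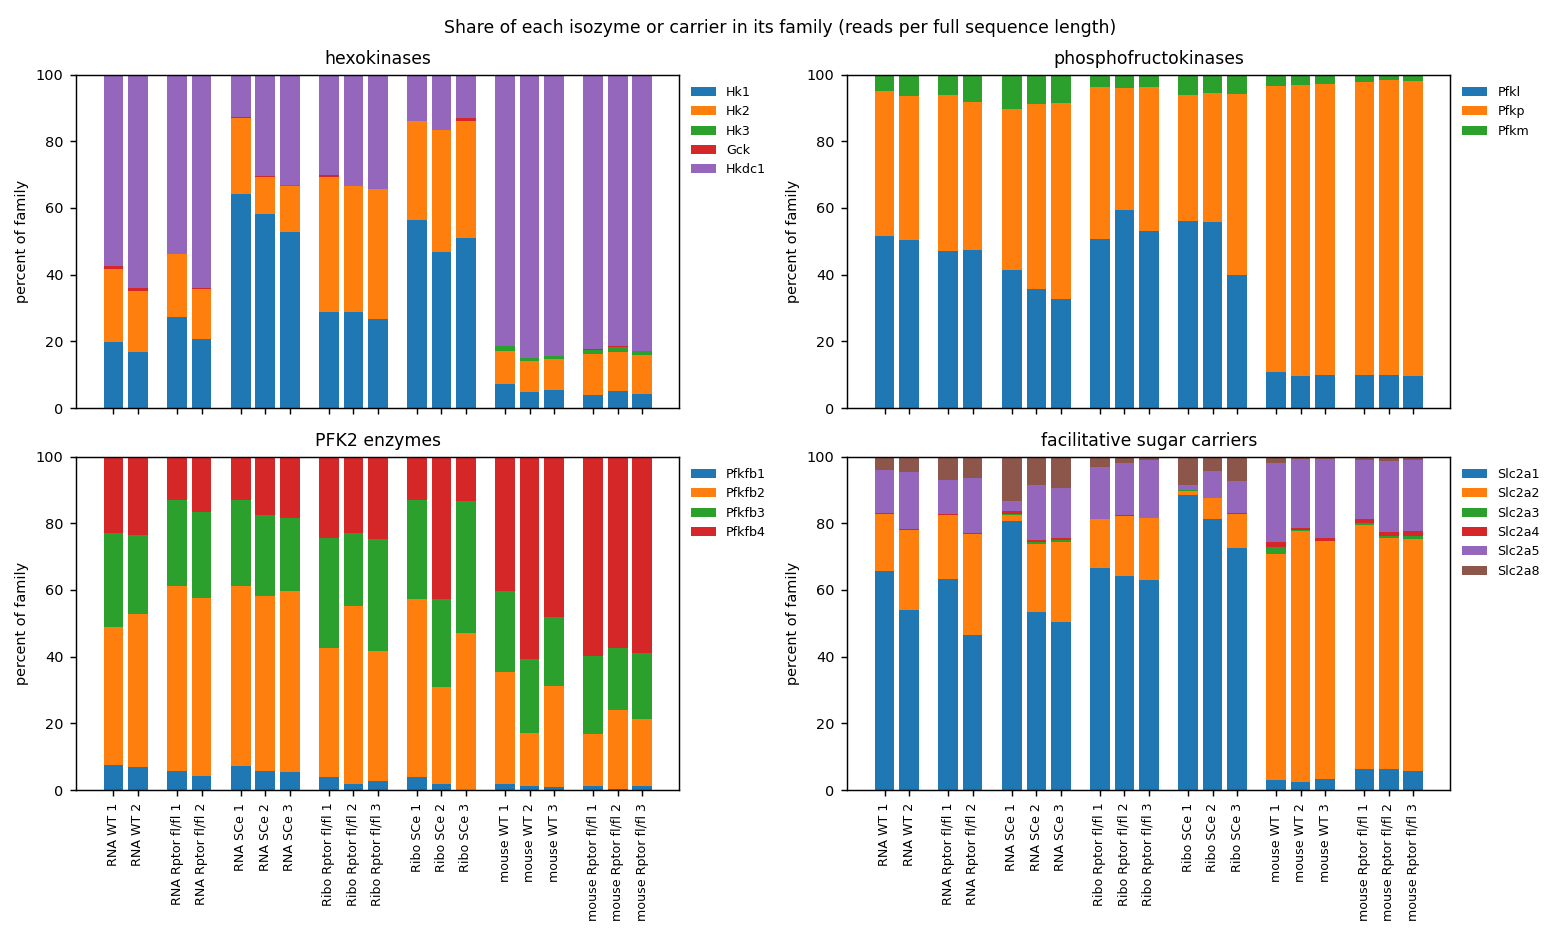
Percent of each family's level per full sequence length (vertical axis, from 0 to 100) taken by each gene in every sample, with hexokinases and phosphofructokinases above and PFK2 enzymes and facilitative sugar carriers below; the full length was an alternative added after the data were seen. *Hk1* took 52.7% to 64.1% of the hexokinases in SCe organoids and 16.8% to 27.2% in WT and Rptor fl/fl organoids in RNA-seq, and *Pfkp* took 86.0% to 88.5% of the phosphofructokinases in mice.

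*Pfkfb2* and *Pfkfb3* were called in mRNA between organoid groups and were not called in footprints of organoids or mice. *Pfkfb2* (ENSMUSG00000026409.14, chr1:130689182-130729253, minus strand), the heart-type enzyme, was at 59.8 and 56.8 CPM in WT, 74.5 and 78.0 CPM in Rptor fl/fl and 43.3, 51.5 and 50.5 CPM in SCe in RNA-seq. The groups were ordered without overlap, Rptor fl/fl above WT above SCe. The rise was 1.31-fold over WT (0.39 ± 0.06, adjusted p = 0.0193) and 1.58-fold over SCe (0.66 ± 0.10, adjusted p = 0.00663). The first was lost without WT line 1 (0.42, adjusted p = 0.0756), WT line 2 (0.35, adjusted p = 0.101) or Rptor fl/fl line 1 (0.42, adjusted p = 0.0509), the second without Rptor fl/fl line 2 (0.63, adjusted p = 0.0586). Its footprints were at 35.4, 28.1 and 33.4 CPM in Rptor fl/fl and 35.8, 32.5 and 35.8 CPM in SCe organoids, overlapping (interval −0.54 to 0.32). In mice they were at 40.4, 21.5 and 41.5 CPM in WT and 26.7, 41.1 and 38.9 CPM in Rptor fl/fl, also overlapping, with an interval of −0.39 to 0.50.

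*Pfkfb3* (ENSMUSG00000026773.19, chr2:11471433-11554077, minus strand), the inducible enzyme with high kinase activity, was lowest in SCe organoids. It was at 65.1 and 48.1 CPM in WT, 54.3 and 57.5 CPM in Rptor fl/fl and 32.2, 38.3 and 33.5 CPM in SCe, with SCe below both others and the latter overlapping. SCe was at 0.621 times WT (−0.69 ± 0.16, adjusted p = 0.0228), and Rptor fl/fl was 1.62-fold over SCe (0.69 ± 0.10, adjusted p = 0.00594). These were −0.47 without WT line 1 (adjusted p = 0.103), −0.66 without SCe library 3 (adjusted p = 0.0775) and 0.66 without Rptor fl/fl line 2 (adjusted p = 0.053). Footprints of *Pfkfb3* were few in organoids, at 27.9, 16.4 and 27.9 CPM in Rptor fl/fl and 17.9, 27.4 and 29.6 CPM in SCe, and overlapped. In mice they were at 29.1, 28.3 and 32.1 CPM in WT and 37.9, 38.1 and 39.4 CPM in Rptor fl/fl, higher without overlap but not past the threshold (0.34 ± 0.13, adjusted p = 0.0899). *Pfkfb4*, the other inducible PFK2 gene, did rise in mice, from 46.8 to 58.4 CPM in WT to 84.3 to 95.5 CPM in Rptor fl/fl (0.70 ± 0.10, adjusted p = 0.000313), and took 40.2% to 69.3% of PFK2 footprints per length there.

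*Aldoa* (ENSMUSG00000030695.16, chr7:126795234-126800751, minus strand), the aldolase of glycolysis, had the call that held best in mice. It was at 522, 489 and 528 CPM in WT and 641, 705 and 728 CPM in Rptor fl/fl, without overlap, 1.35-fold (0.43 ± 0.07, adjusted p = 0.00103), and was called under each of 10 alternatives (0.40 to 0.49). In organoids its mRNA was at 1343 and 1027 CPM in WT, 961 and 850 CPM in Rptor fl/fl and 1409, 1879 and 1558 CPM in SCe. The 3 groups did not overlap, in the order SCe, WT, Rptor fl/fl. Rptor fl/fl was 0.561 times SCe (−0.83 ± 0.16, adjusted p = 0.0125, and −0.92 and −0.74 with adjusted p = 0.0629 and 0.0941 without its line 1 or 2), and the steps from WT did not pass (−0.39 ± 0.16, adjusted p = 0.14, and 0.47 ± 0.19, adjusted p = 0.099). Footprints were at 2317, 2156 and 2191 CPM in Rptor fl/fl and 2953, 2914 and 3271 CPM in SCe, lower without overlap (−0.46 ± 0.16, adjusted p = 0.0907), and without SCe library 1 the estimate was −0.48 (adjusted p = 0.0119). The retrogene copies *Aldoart1* and *Aldoart2* held at most 20 and 22 reads in any sample, at most 0.468% of those of *Aldoa*.

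Translation efficiency, the ratio of footprints to mRNA, was compared between Rptor fl/fl and SCe organoids as the interaction of assay and group. None of the 10 genes was called by edgeR, where 1.12% of 10747 genes were called higher and 1.81% lower, and 1 of the 10 had an unadjusted p under 0.05. That was *Pfkfb2*, whose ratio was lower in Rptor fl/fl (−0.71 ± 0.20, adjusted p = 0.0837), and DESeq2 called it (−0.72, adjusted p = 0.0147). With effective length as an offset its estimate turned to 0.80 (adjusted p = 0.726), and that of its footprints to 1.33. The estimates of *Pfkfb3* (−0.70 ± 0.34, adjusted p = 0.273), *Hk2* (−0.60 ± 0.28, adjusted p = 0.262) and *Hk1* (−0.41 ± 0.22, adjusted p = 0.328) were below 0. Those of *Pfkp* (0.63 ± 0.28, adjusted p = 0.249) and *Aldoa* (0.44 ± 0.23, adjusted p = 0.323) were above 0. The median of the 10 was −0.07, beside −0.03 over all genes. Depth differed between the assays, and the smallest footprint library held 38 footprints of *Pfkfb2* and 32 of *Pfkfb3*.

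**Figure D4:**
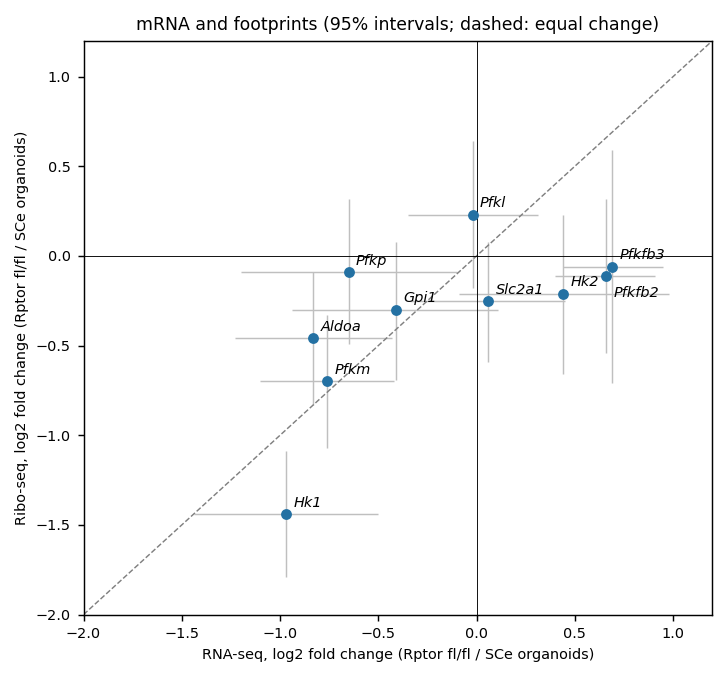
Log2 fold change between Rptor fl/fl and SCe organoids in mRNA (horizontal axis, RNA-seq) and footprints (vertical axis, Ribo-seq) for the 10 genes, with 95% intervals; on the dashed line mRNA and footprints differ equally. *Hk1* lies furthest down on both axes, at −0.97 and −1.44, and *Pfkfb2* and *Pfkfb3* lie right of the line, at 0.66 and 0.69 in mRNA and −0.11 and −0.06 in footprints.

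The steps below the aldolase were taken as a list of 12 genes down to lactate export. In Rptor fl/fl organoids against WT, 5 of the 12 mRNAs fell and 1 rose, beside 11.0% and 11.6% of all genes. Among them were the lactate exporter *Slc16a3* (−1.97 ± 0.22, adjusted p = 0.0132), lactate dehydrogenase *Ldha* (−0.92 ± 0.14, adjusted p = 0.0186) and triose phosphate isomerase *Tpi1* (−0.82 ± 0.12, adjusted p = 0.0175), and *Ldhb*, at 0.202 to 0.321 CPM in WT, was the riser (4.01 ± 0.33, adjusted p = 0.00983). Against SCe organoids 10 of the 12 were lower in Rptor fl/fl and 1 higher, beside 21.8% and 21.0% of all genes, with *Slc16a3* at −2.70 ± 0.18 (adjusted p = 0.00108) and *Pkm*, pyruvate kinase, at −0.96 ± 0.12 (adjusted p = 0.00376). In footprints of the same groups 2 of 11 tested were lower, beside 9.84% of all genes. Translation efficiency was higher in Rptor fl/fl for 2 of 11, beside 1.12% of all genes. These were *Slc16a3* (1.63 ± 0.27, adjusted p = 0.0141) and *Ldha* (1.15 ± 0.23, adjusted p = 0.0286). Between SCe and WT organoids 3 of 12 were higher in SCe and 1 lower, beside 22.4% and 19.9% of all genes, and the lower gene was *Eno1* (−0.81 ± 0.16, adjusted p = 0.015).

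In mice 7 of 11 tested genes of the lower pathway were higher in Rptor fl/fl and 1 lower, beside 7.47% and 5.97% of all genes. *Slc16a3* rose from 20.2 to 25.1 CPM in WT to 43.8 to 56.8 CPM in Rptor fl/fl (1.17 ± 0.14, adjusted p = 5.44e-05). *Ldha* (0.40 ± 0.07, adjusted p = 0.000964), *Gapdh* (0.35 ± 0.06, adjusted p = 0.00103) and *Pkm* (0.34 ± 0.07, adjusted p = 0.00244) rose by steps like those of *Aldoa* and *Pfkp*, and the median of the list was 0.34. The apical and basolateral sugar carriers fell instead, *Slc2a5* by 0.55 ± 0.08 (adjusted p = 0.000309), *Slc2a2* by 0.53 ± 0.08 (adjusted p = 0.000592) and *Slc5a1* by 0.27 ± 0.06 (adjusted p = 0.0104), and with *Pfkfb4* they were the 4 called of 12 other upper-pathway genes tested. Of 8 genes of gluconeogenesis, the reverse path, 3 rose and 3 fell, among them *G6pc*, which releases free glucose (1.28 ± 0.13, adjusted p = 8.97e-06), *Pck1* (0.89 ± 0.10, adjusted p = 1.66e-05) and *Pcx* (0.57 ± 0.11, adjusted p = 0.00229) upwards and *Fbp1*, which opposes PFK1, downwards (−0.51 ± 0.12, adjusted p = 0.00941).

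The other sugar carriers, hexokinases and PFK2 enzymes form, with *Aldoc*, a list of their own. Of 9 tested in footprints 3 were higher in Rptor fl/fl than in SCe and none lower, beside 6.63% and 9.84% of all genes. These were *Slc2a2* (1.72 ± 0.39, adjusted p = 0.0193), *Slc2a5* (1.56 ± 0.40, adjusted p = 0.0303) and *Hkdc1* (0.67 ± 0.18, adjusted p = 0.0391). Beside them, 4 of 10 enterocyte markers were higher as well. In RNA-seq 1 of 12 rose and 1 fell in Rptor fl/fl against WT, beside 11.6% and 11.0% of all genes. They were *Slc2a4*, at 0.227 to 0.242 CPM in WT and 0.581 to 0.735 CPM in Rptor fl/fl (1.48 ± 0.34, adjusted p = 0.0403), and *Aldoc* (−0.88 ± 0.14, adjusted p = 0.0208). In SCe against WT 3 of 13 were higher and 3 lower, near the 22.4% and 19.9% of all genes. Genes of gluconeogenesis in organoids were called 1 up and 2 down of 8 in Rptor fl/fl against WT, with *Pck2* at −1.35 ± 0.10 (adjusted p = 0.00891).

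Regulators that are known to act on these genes were counted in the same way. Of 17 targets and subunits of HIF outside glycolysis, 10 fell and none rose in Rptor fl/fl organoids against WT, beside 11.0% and 11.6% of all genes, such as *Adm* (−2.13 ± 0.32, adjusted p = 0.0193), *Bnip3* (−1.62 ± 0.25, adjusted p = 0.0199), *Egln3* (−1.69 ± 0.29, adjusted p = 0.0232) and *Car9* (−0.77 ± 0.13, adjusted p = 0.024), with a median of −0.64. In SCe organoids 9 of the 17 were lower than in WT and 1 higher, beside 19.9% and 22.4% of all genes, with *Vegfa* at −1.66 ± 0.13 (adjusted p = 0.00171). Between Rptor fl/fl and SCe organoids the list went both ways, 5 higher and 4 lower in Rptor fl/fl with a median of 0.03, beside 21.0% and 21.8% of all genes. In mice 2 of 14 tested rose in Rptor fl/fl and none fell, beside 7.47% and 5.97% of all genes. The risers were *P4ha1* (0.91 ± 0.21, adjusted p = 0.00809) and *Hif1a* (0.33 ± 0.09, adjusted p = 0.0287). Among 6 glucose-responsive regulators, *Txnip*, an inhibitor of glucose uptake, was the gene called in Rptor fl/fl organoids against WT (0.83 ± 0.08, adjusted p = 0.0109), and in mice it rose by 0.39 ± 0.07 (adjusted p = 0.00136) and *Mlx*, the partner of ChREBP, by 0.34 ± 0.09 (adjusted p = 0.0204). Between SCe and WT organoids 2 of the 6 were higher, *Txnip* (1.31 ± 0.29, adjusted p = 0.0203) and *Gckr* (4.60 ± 1.00, adjusted p = 0.0195), at 0.202 to 0.264 CPM in WT and 1.27 to 8.60 CPM in SCe, and 2 lower, *Mlx* (−1.27 ± 0.07, adjusted p = 0.00119) and *Mlxip* (−0.88 ± 0.08, adjusted p = 0.00213).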

How the data were processed

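RNA-seq and Ribo-seq of *Rptor* fl/fl, WT and SCe samples were analysed from 23 libraries, which are 19 lines, libraries and mice after the technical RNA-seq libraries of a line were summed. Per the labels and the study's methods, the authors trimmed reads with cutadapt 1.18 and deposited estimated counts per transcript sequence from Salmon 1.1.0 (mm10, GENCODE vM21), not normalised, with the length and effective length of each sequence. RNA-seq used a stranded mRNA kit, and footprints were released with RNase I after cycloheximide. Organoid footprints were counted on coding sequences with 46 added bases, with separate entries upstream of the start that were left out of gene sums. The mouse sequences had, for 71.1% of 55016 with a 5′ UTR, the length of the annotated 5′ UTR and coding sequence with 31 added bases, so mouse counts and lengths include the 5′ UTR and upstream footprints could not be left out. The study used DESeq2 and RiboDiff, and the authors' table of translation efficiency (dispersions, p-values, ratios and log2 changes) was not used.

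Sums of estimated counts over the sequences of a gene were rounded and compared with edgeR 4.0.16 (R 4.3.3, quasi-likelihood, TMM scaling, filterByExpr, Benjamini-Hochberg at 0.05) between the 2 groups of each comparison. For translation efficiency the fit held both assays, and the term for group by assay was tested, with TMM within each assay. CPM values use TMM-scaled library sizes over all groups of the same kind of library. Levels per length divide by effective length and are given as TPM, recomputed over all genes. Shares within a family were compared by two-sided exact permutation tests, whose smallest p is 0.333 for 2 against 2 and 0.1 for 2 against 3 or 3 against 3. The tests were checked on simulated counts with 4-fold changes, of which 100% were recovered in each comparison. Smaller changes, such as those of the 10 genes, were not simulated, so the check does not show how well they are found. The 10 genes and the lists were chosen with earlier results of these data known. A gene of the lists and the shares within its family are not reported here. All 10 genes were named, and of each other list up to 4 called genes with the smallest adjusted p in a comparison could be named. Alternatives were DESeq2 1.42.0, no count filter, all RNA-seq groups in 1 fit, technical libraries kept separate, a replicate block, an effective length offset, upstream entries added, and each line, library or mouse left out. Full length in place of effective length was added after the data were seen.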

Additional observations from a re-analysis of the deposited data

Results flagged for a closer look

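For 4 of the genes, Rptor fl/fl and WT did not overlap in either source and lay in opposite order in RNA-seq of organoids and Ribo-seq of mice. *Slc2a1* had a log2 change of −0.47 in organoids and 0.64 in mice, *Pfkl* −0.59 and 0.30, *Pfkp* −0.43 and 0.33, and *Aldoa* −0.39 and 0.43. The share of all genes with this pattern was not computed. In RNA-seq, with 2 lines in each group, 5 of the 10 lay lower without overlap and 2 higher. The share of all genes that separate in RNA-seq was not computed either, so these counts are not read as a result. An exact permutation test of 2 against 2 cannot give a p under 0.333, so separation there is weak. *Pfkl* alone of the 4 was called there, and *Slc2a1* separated narrowly, at 88.2 CPM in WT against 86.8 CPM in Rptor fl/fl. In mice *Pfkl* was not called. The difference between the sources was not tested, and assay, Cre driver and tissue all differ between them and cannot be told apart.

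Entries upstream of the coding start, which the comparisons leave out, held footprints of 2 of the genes at a higher share in every Rptor fl/fl organoid library than in any SCe library, as for 2.98% of 10464 genes with footprints in each library, and of 3, *Gpi1*, *Hk1* and *Pfkfb2*, at a lower one (6.34% of those genes). Any gene with no upstream footprint counts among the 10464 and cannot separate, which lowers these shares. Over whole libraries the upstream entries took 3.82% to 4.25% in Rptor fl/fl and 2.97% to 6.98% in SCe. For *Pfkp* the lowest Rptor fl/fl library was at 0.316% and the SCe libraries at 0.137%, 0% and 0%, on 16, 13 and 12 against 1, 0 and 0 footprints. For *Pfkm* the lowest was at 2.41% and the SCe libraries at 0.84%, 1.08% and 0.893%, on 7, 13 and 13 against 1, 1 and 3 footprints. These counts are small, and a count of 0 does not show that none exist.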

How the results depend on the processing

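Across the alternatives, 597 fold changes of the 10 genes kept direction and side of the threshold, 40 lost it, 35 gained it and 28 changed sign, none of the last from a called value. No scaling moved the median of all genes by over 0.1. Depth limits the mouse values most, with 10 footprints of *Slc2a1* in the smallest library. Where an arm was left with 1 sample, that sample was assumed to vary like the others. The causes of the changes below were not tested.

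With all RNA-seq groups in 1 fit, Rptor fl/fl against WT organoids gave 1544 genes in place of 3195 and 0 of the 10 in place of 2, technical libraries kept separate gave 7208 genes and 6 of the 10, and DESeq2 5 of the 10. Counts with technical libraries separate, here and below, treat libraries of the same line as independent and overstate the replication. Deviations of same-numbered samples from their group means correlated at 0.202 to 0.398 in RNA-seq, with 2 pairs in each comparison, and at −0.0458 to 0.0352 in Ribo-seq. The labels do not say that same-numbered samples share an animal, and the numbers were not taken to pair the samples. The study's methods mention an extra Rptor fl/fl set, induced in vitro to give paired samples, without saying whether it was sequenced. The WT organoids in RNA-seq carry another genotype label, VillinCre.ERT2.RPL22.HA. For RNA-seq these correlations do not exclude a pairing. A replicate block gave 6 of the 10 for Rptor fl/fl against WT organoids, 3154 genes in place of 6309 and 2 of the 10 in place of 4 for SCe against WT (without *Pfkl* and *Pfkfb3*), 3413 genes in place of 6452 and 4 of the 10 in place of 5 for Rptor fl/fl against SCe in RNA-seq (without *Aldoa*), 1 of the 10 in place of 2 in footprints (without *Pfkm*), and 4 genes in place of 315 for translation efficiency. Translation efficiency also gave 1206 genes with DESeq2, 1312 with technical libraries separate and 116 with an effective length offset, and 1 of the 10, *Pfkfb2*, with DESeq2 and with technical libraries separate. The offset gave 659 genes in place of 1781 and 0 of the 10 for organoid footprints, and 678 in place of 1547 and 2 of the 10 in place of 5 in mice.

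Leaving out samples in turn gave 939 to 2126 genes and 0 to 2 of the 10 for Rptor fl/fl against WT organoids, 2027 to 9530 and 1 to 9 for SCe against WT, 2509 to 9101 and 1 to 8 for Rptor fl/fl against SCe in RNA-seq, 669 to 2682 and 1 to 4 in footprints, 25 to 951 and 0 for translation efficiency, and 897 to 1954 and 2 to 6 in mice. Shares that did not overlap numbered 4 to 8 in place of 4 for Rptor fl/fl against WT organoids and 0 to 4 in place of 0 in organoid footprints (4 without SCe library 3), where reads without length gave 6 and full length 4. With full length the median level per length of the 10 went from 43.8 to 54.5 in Rptor fl/fl, 45.4 to 59.5 in SCe and 44.3 to 56.0 in WT organoids in RNA-seq, from 29.4 to 61.8 and 36.6 to 78.5 in Rptor fl/fl and SCe footprints, and from 18.0 to 30.7 and 14.3 to 26.3 in Rptor fl/fl and WT mice.

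Signs changed when samples were left out in turn for Rptor fl/fl against WT organoids at *Hk2* (−0.07 to 0.53, negative without WT line 2), *Gpi1* (−0.19 to 0.15, positive without WT line 1) and *Pfkfb3* (−0.22 to 0.21, positive without WT line 1 or Rptor fl/fl line 1), and for SCe against WT at *Hk2* (−0.50 to 0.09, positive without WT line 1). For Rptor fl/fl against SCe the ranges were −0.07 to 0.19 at *Slc2a1* and −0.08 to 0.10 at *Pfkl* in RNA-seq, −0.21 to 0.03 at *Pfkp* and −0.25 to 0.16 at *Pfkfb3* in footprints, and −0.01 to 0.34 at *Gpi1* and −0.04 to 0.29 at *Pfkm* for translation efficiency. In mice they were −0.13 to 0.09 at *Hk1* and −0.19 to 0.38 at *Pfkfb2*. The offset changed the sign of *Pfkfb3* against WT (0.01), of *Pfkl* in RNA-seq (0.01), footprints (−0.28) and translation efficiency (−0.24), of *Pfkp* in footprints (0.01), and of *Pfkfb2* in footprints (1.33), translation efficiency (0.80) and mice (−0.01), and the block that of *Slc2a1* in RNA-seq of Rptor fl/fl against SCe (−0.04).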

Other observations

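Footprints on the upstream entries were a large part at *Hk2* and *Pfkfb3*. At *Hk2* they were 15.3%, 15.5% and 15.4% of its footprints in Rptor fl/fl organoids and 19%, 9.66% and 5.42% in SCe, and at *Pfkfb3* 9.68%, 22.6% and 14.6% and 26.7%, 23.8% and 5.88%. The groups overlapped at both genes, and the SCe libraries were spread widely. At *Gpi1* the Rptor fl/fl libraries, at 0.167%, 0.165% and 0.104%, lay below the SCe libraries, at 1.14%, 0.337% and 0.468%. So they did at *Hk1*, at 0.828%, 0.187% and 0.295% against 1.42%, 1.07% and 1.54%, and narrowly at *Pfkfb2*, at 5.75%, 5.35% and 7.12% against 10.8%, 15.6% and 7.19%.

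The gene most alike in pattern to each of the 10 was sought over 19 lines, libraries and mice and 9809 genes, by Pearson's r of log2(CPM + 1) centred within each kind of library. These points share libraries and groups, so r is a description. *Aldoa* was most like *Cs* (r = 0.955), *Hk1* like *Cyp27a1* (0.948), *Pfkm* like *Aqp1* (0.933), *Gpi1* like *Gapdh* (0.905), *Pfkp* like *Crot* (0.898), *Pfkfb3* like *Slc25a22* (0.894), *Pfkl* like *Mdh2* (0.877), *Pfkfb2* like *2310007B03Rik* (0.832), *Slc2a1* like *Arf1* (0.829) and *Hk2* like *Ankrd50* (0.809). Among the 10 themselves, *Gpi1* and *Pfkp* were each closest to *Aldoa* (0.844 and 0.833), and *Hk1* and *Pfkm* were closest to each other (0.778).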
